A study of Homo sapiens with 12 samples.

Results

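The replication-dependent histone genes encode the H1 linker histones and the core histones H2A, H2B, H3 and H4 that package newly copied DNA. They were taken as the probe sets annotated with 1 gene symbol that was H1-1 to H1-6 or began with H2AC, H2BC, H3C or H4C followed by a number, the present names of the HIST1H, HIST2H and related symbols. This rule found 58 probe sets for 58 genes, of 19460 probe sets with 1 symbol. Of these, 6 belonged to the H1 class, 14 to H2A, 17 to H2B, 8 to H3 and 13 to H4, and 49 of the genes lie on chromosome 6, 8 on chromosome 1 and 1 on chromosome 12. Transcript levels were measured on 12 Affymetrix arrays in HepG2, an established human hepatoma line. One subline carried a hairpin directed at p53 (sh-p53) and the other a non-relevant control hairpin (sh-con). Each line received Nutlin (10 uM), AICAR (0.5 mM) or DMSO as the control for 24 h, giving 6 groups of 2 arrays from biological duplicates plated at 700000 cells per well. Nutlin releases p53 from its ubiquitin ligase MDM2, and AICAR switches on AMPK, a kinase that senses low energy, and the design names both as p53 stimulators. Every group, the controls included, carried a hairpin, and the labels describe 1 line for each hairpin, so that knockdown and any other difference of these lines cannot be told apart.

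Cells need new histones in S phase, when DNA is copied, and the genes of this family are switched on together at that time through the coactivator NPAT. Their mRNAs are unusual in lacking a poly(A) tail. They end in a stem-loop that is bound by the protein SLBP, which governs their processing, translation and decay, and they are rapidly lost when DNA synthesis stops. H3 and H4 are deposited first on new DNA, H2A and H2B join them to complete the nucleosome, and H1 binds the linker DNA between nucleosomes. Some family members, such as H2BC21, H2BC12, H2BC5, H2BC4 and H2AC6, are also known to give polyadenylated transcripts in cells that have stopped dividing. The priming used to copy the RNA is not given in the sources used here, and how far each transcript's tail affected its value was not tested.

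Of the 58 probe sets, 42 passed a filter that left out those with a mean under 4.58 on the log2 scale, and these were tested: 4 of H1, 10 of H2A, 12 of H2B, 6 of H3 and 10 of H4. The other 16 held values between 3.36 and 4.85 on the log2 scale on all arrays. They included the testis histones H1-6, H2AC1 and H2BC1, and also H1-1, H2AC12, H2AC16, H2AC25, H2BC6, H2BC10, H2BC11, H2BC26, H3C1, H3C8, H4C6, H4C7 and H4C13. Members passed or failed the filter partly on their level in groups where they were high, so counts below refer to the 42 tested. Histone genes of 1 class are near-identical copies, and a probe set named for 1 gene can also measure its relatives. The probe sets for H4C14 and H4C15, a duplicated gene pair, held the same value on every array, which left 41 distinct measurements. H2BC19P is annotated as a pseudogene.

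The classes differed in the motif matches found in the sequence before the gene start. RefSeq promoter windows of GRCh38.p14 matched 52 of the 58 genes, and the 250 bases before the gene start were searched on both strands for 3 motifs, none of which contains another: the octamer ATTTGCAT, bound by the factor OCT1, the CCAAT box CCAAT and the TATA box TATAAA. The octamer was present in 44.2% of the histone windows, against 1.63% of all 35116 windows in the table. It was found in 81.2% of H2B windows and 76.9% of H2A windows, and in 0 of the 6 H1, 6 H3 and 11 H4 windows. The CCAAT box was present in every window of H1, H2A, H2B and H3, in 27.3% of H4 windows and in 32.0% of all windows. The TATA box was present in 65.4% of histone windows, against 10.7% of all windows. The windows of 4 genes are shown, motif letters in capitals and gene strand 5′ to 3′. H2BC14, H3C2 and H4C2 had the largest Nutlin responses in sh-con among tested members of H2B, H3 and H4. H2BC21 was the tested member called higher, though sets it shares with other genes fell. In this order the windows lie at chr6:27814772-27815021 (plus strand), chr6:26032100-26032349 (minus strand), chr6:26027284-26027533 (minus strand) and chr1:149886683-149886932 (minus strand).
H2BC14: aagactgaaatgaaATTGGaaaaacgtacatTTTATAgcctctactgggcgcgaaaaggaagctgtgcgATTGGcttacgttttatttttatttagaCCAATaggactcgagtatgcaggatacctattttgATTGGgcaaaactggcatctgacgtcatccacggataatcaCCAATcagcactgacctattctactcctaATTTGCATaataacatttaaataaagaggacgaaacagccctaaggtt
H3C2: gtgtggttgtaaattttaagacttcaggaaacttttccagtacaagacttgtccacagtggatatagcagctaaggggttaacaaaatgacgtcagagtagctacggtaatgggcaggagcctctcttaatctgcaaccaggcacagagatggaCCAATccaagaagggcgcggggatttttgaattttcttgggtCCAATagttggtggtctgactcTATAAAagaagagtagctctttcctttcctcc
H4C2: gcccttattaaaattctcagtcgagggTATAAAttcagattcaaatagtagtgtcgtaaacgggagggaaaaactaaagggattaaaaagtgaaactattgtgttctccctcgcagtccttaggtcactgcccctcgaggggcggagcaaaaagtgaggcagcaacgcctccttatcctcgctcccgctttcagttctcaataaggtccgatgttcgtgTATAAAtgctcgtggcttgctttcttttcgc
H2BC21: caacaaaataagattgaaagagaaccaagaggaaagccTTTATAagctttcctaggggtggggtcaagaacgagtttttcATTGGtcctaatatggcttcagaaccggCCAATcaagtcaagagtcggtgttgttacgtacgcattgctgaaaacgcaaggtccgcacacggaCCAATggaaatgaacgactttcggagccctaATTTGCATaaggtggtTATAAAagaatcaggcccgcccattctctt
The H2BC14 and H2BC21 windows share the same layout near the start, an octamer that ends 41 bases before it in H2BC14 and 39 bases before it in H2BC21, with a CCAAT box that ends 73 bases before it in both. H2BC21 also has a TATA box that ends 25 bases before the start. In H3C2 a TATA box ends 27 bases before the start, and in H4C2 one ends 26 bases before it. Among tested members with a window, the octamer was present in 48.4% of the 31 that fell with Nutlin in sh-con and in 33.3% of the 6 that did not. The CCAAT box was present in 80.6% and 83.3% of these and the TATA box in 67.7% and 83.3%. The octamer lay only in H2A and H2B windows, and this split was not made within a class. A match is a description of letters and shows no binding.

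As a check on the labels, CDKN1A, a p53 target that encodes the cell cycle inhibitor p21, stood at 7.61 and 7.63 with Nutlin in sh-p53, 6.14 and 6.32 with DMSO in sh-p53, 9.92 and 9.76 with Nutlin in sh-con and 7.06 and 6.93 with DMSO in sh-con, all on the log2 scale. Its rise with Nutlin was smaller in sh-p53 by 1.45 ± 0.19 on the log2 scale (difference of log2 fold changes, -1.45, adjusted p = 4.23e-05). MDM2, also a p53 target, had 11.20 and 11.17 with Nutlin and 9.78 and 9.96 with DMSO in sh-p53 (1.32 ± 0.14, adjusted p = 0.000105), and 12.07 and 12.21 with Nutlin and 10.63 and 10.47 with DMSO in sh-con (1.59 ± 0.14, adjusted p = 7.05e-08). Both targets thus rose with Nutlin in sh-p53 too, and the difference between the lines did not pass for MDM2 (-0.27 ± 0.19, adjusted p = 0.485). With AICAR, MDM2 had 9.96 and 10.12 in sh-p53 (0.17 ± 0.14, adjusted p = 0.331) and 11.25 and 11.25 in sh-con (0.69 ± 0.14, adjusted p = 0.000628). CDKN1A had 8.02 and 7.96 with AICAR in sh-p53 and 9.31 and 9.21 in sh-con, above DMSO in both lines. Of the 2 targets, 1 was called higher with AICAR in sh-p53 and 2 in sh-con. The difference of the AICAR response between the lines was called in 0 of the 2. The 12 hepatocyte markers held values from 10.44 to 13.06, while 0 of 4 endothelial, 1 of 4 leukocyte and 2 of 4 fibroblast markers passed the filter. The leukocyte marker that passed, CD68, was higher with AICAR, with log2 fold changes of 0.89 in sh-p53 and 0.59 in sh-con, and its part in the results was not tested. Array medians lay between 5.64 and 5.84, and duplicate arrays correlated at Pearson r = 0.984 to 0.994 over the tested probe sets, which are not independent replicates. The p-values given here are adjusted p from limma over all 14595 probe sets tested, 2-sided, with ± giving the standard error of the fit. They measure the spread between duplicate arrays, and precision is limited by how few arrays there are.

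**Figure D1:**
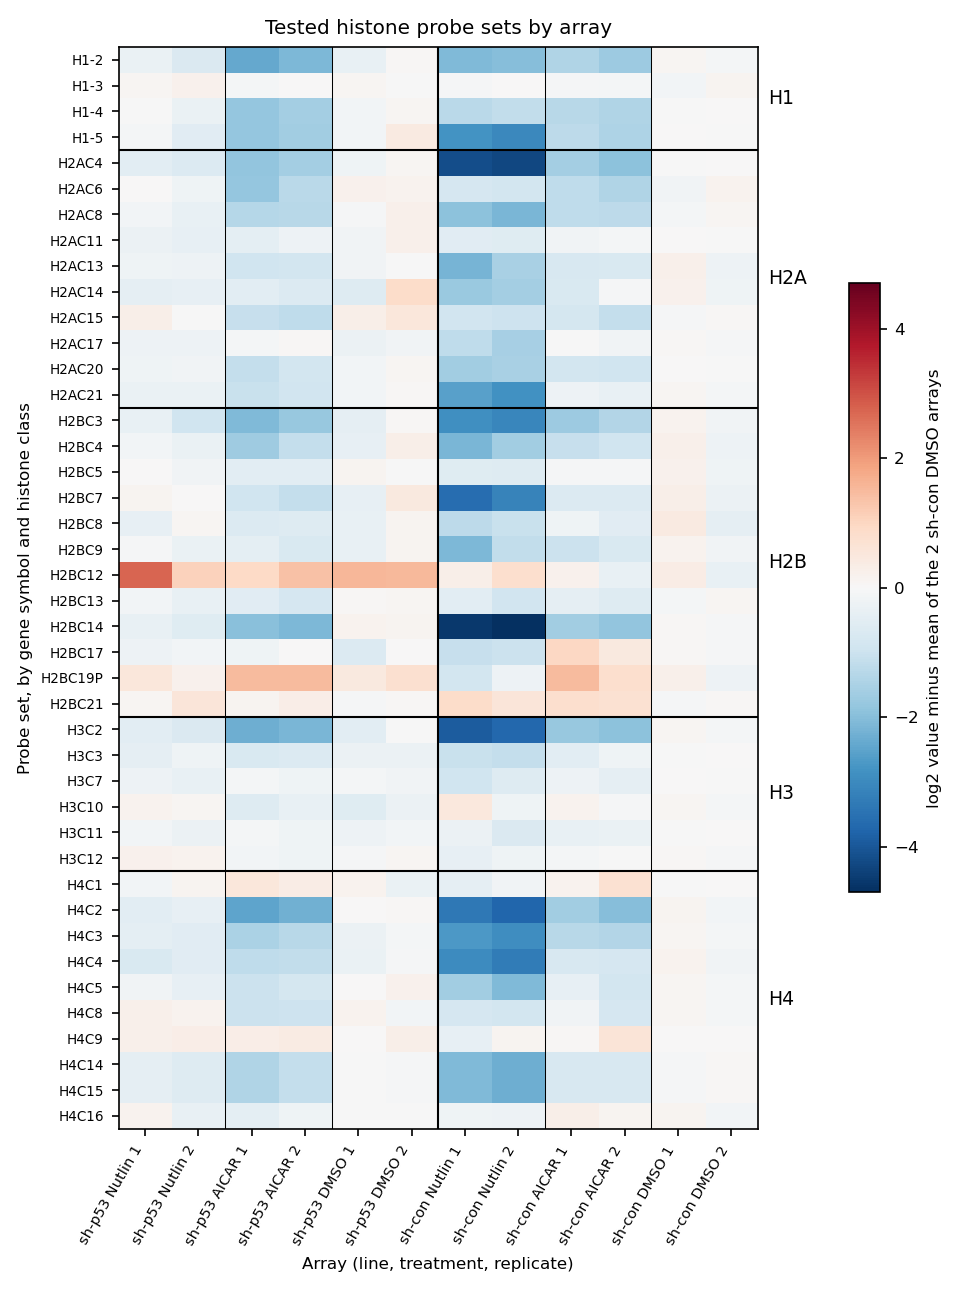
Difference of each array (columns, by line, treatment and replicate) from the mean of the 2 sh-con DMSO arrays, on the log2 scale, for the 42 tested histone probe sets (rows, by class). The sh-con Nutlin columns are the darkest blue, reaching beyond 4 below DMSO in H2AC4 and H2BC14, the AICAR columns of both lines are paler blue, and the sh-p53 Nutlin columns differ little from DMSO.

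Nutlin against DMSO in sh-con asked how histone transcripts responded where the hairpin did not target p53. Of the 42 tested members, 33 fell and 1 rose, with a median log2 fold change of -1.28, while 29.8% of all tested probe sets were called, 18.7% lower and 11.0% higher, with a median of 0.01. In 25 of the called members the change was at least 2-fold, as it was in 866 called probe sets of all 14595 tested. The falls took in every class: 3 of 4 members of H1, all 10 of H2A, 9 of 12 of H2B, 4 of 6 of H3 and 7 of 10 of H4. Class medians on the log2 scale were -1.61 for H1, -1.63 for H2A, -1.10 for H2B, -0.63 for H3 and -2.02 for H4. In RNA from whole wells, fewer cells in S phase and less histone RNA per S phase cell cannot be told apart.

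Among the linker histones, H1-5 had values of 5.96 and 5.72 on the sh-con Nutlin arrays, against 8.76 and 8.75 with DMSO, a log2 fold change of -2.92 ± 0.18 (adjusted p = 1.04e-09). H1-2 had 6.52 and 6.59 with Nutlin, against 8.70 and 8.48 with DMSO (-2.04 ± 0.18, adjusted p = 8.63e-08). H1-4 had 10.35 and 10.46 with Nutlin, against 11.57 and 11.63 with DMSO (-1.19 ± 0.15, adjusted p = 9.89e-06). All 3 are somatic linker histones of dividing cells, and in each the Nutlin arrays lay below both DMSO arrays. H1-3, another somatic linker histone, had 4.73 and 4.81 with Nutlin and 4.68 and 4.91 with DMSO, and its groups overlapped (-0.02 ± 0.14, adjusted p = 0.906). Its values were close to the level of the filter, where RMA compresses differences.

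Within H2A, which pairs with H2B at the faces of the nucleosome, H2AC4 changed most. It had 5.29 and 5.16 on the sh-con Nutlin arrays, against 9.42 and 9.49 with DMSO, which is 18.7-fold lower (-4.23 ± 0.15, adjusted p = 6.78e-12). H2AC21 had 8.17 and 7.91 with Nutlin, against 10.82 and 10.66 with DMSO (-2.70 ± 0.14, adjusted p = 1.21e-10). H2AC8 had 3.90 and 3.67 with Nutlin, against 5.75 and 5.90 with DMSO (-2.03 ± 0.15, adjusted p = 8.05e-09). Its Nutlin mean was under the level of the filter, as it was for H2AC14, H2AC17, H2BC3 and H3C11, so the size of these 5 falls is uncertain. The smallest changes of the class were in H2AC6 and H2AC11. H2AC6, one of the genes known for polyadenylated transcripts, had 7.17 and 7.09 with Nutlin, against 7.78 and 8.14 with DMSO (-0.82 ± 0.17, adjusted p = 0.0017). H2AC11 fell by 0.55 ± 0.15 (adjusted p = 0.0106), a call that was lost without the first sh-con DMSO array (-0.52, adjusted p = 0.0868) or the second sh-con Nutlin array (-0.54, adjusted p = 0.0677).

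Among the tested members, H2B held both the largest fall of the family and its only called rise. H2BC14 had 6.05 and 5.77 on the sh-con Nutlin arrays, against 10.66 and 10.54 with DMSO, 25.8-fold lower (-4.69 ± 0.15, adjusted p = 8.09e-13), and this was the lowest log2 fold change of all 14595 probe sets. H2BC7 had 4.54 and 4.99 with Nutlin, against 8.40 and 7.87 with DMSO (-3.37 ± 0.23, adjusted p = 3.35e-09). H2BC3 had 4.35 and 4.19 with Nutlin, against 7.40 and 7.10 with DMSO (-2.98 ± 0.20, adjusted p = 3.58e-09). Against these, H2BC21 rose, with 7.53 and 7.24 with Nutlin and 6.60 and 6.74 with DMSO, and its groups did not overlap (0.71 ± 0.16, adjusted p = 0.0034). Sets that H2BC21 shares with other genes, outside the members, fell instead (-1.26 ± 0.15, adjusted p = 5.03e-06, and -0.69 ± 0.13, adjusted p = 0.00101). H2BC12 had 5.44 and 5.95 with Nutlin and 5.53 and 4.80 with DMSO, overlapping groups (0.53 ± 0.36, adjusted p = 0.271). A set shared by H2BC12, H2BC12L, H2BC17 and H2BC5 fell (-1.65 ± 0.18, adjusted p = 1.68e-06). The pseudogene H2BC19P had 3.88 and 4.49 with Nutlin and 4.95 and 4.50 with DMSO (-0.54 ± 0.23, adjusted p = 0.0832).

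Among the 6 tested members of H3, 1 probe set moved far more than the rest. H3C2 had 6.12 and 6.34 on the sh-con Nutlin arrays, against 10.12 and 9.97 with DMSO, 14.1-fold lower (-3.82 ± 0.16, adjusted p = 1.37e-11). H3C3 had 5.78 and 5.69 with Nutlin, against 6.78 and 6.84 with DMSO (-1.08 ± 0.14, adjusted p = 1.39e-05). H3C7 had 5.90 and 6.25 with Nutlin, against 6.88 and 6.82 with DMSO (-0.77 ± 0.14, adjusted p = 0.000585). These genes encode the same canonical H3 protein of S phase, so their probe sets differ in response but not in the protein named. H3C10 had 8.58 and 7.89 with Nutlin and 8.18 and 8.02 with DMSO, overlapping groups (0.13 ± 0.19, adjusted p = 0.602). A set shared by H3C10 and H2AC13, outside the members, fell (-1.27 ± 0.19, adjusted p = 9.16e-05). Sets shared by H3C13, H3C14 and H3C15, also outside the members, fell too, with log2 fold changes of -3.10, -2.18 and -1.79. H3C12 had 4.43 and 4.61 with Nutlin and 4.85 and 4.75 with DMSO, near the level of the filter (-0.28 ± 0.13, adjusted p = 0.12). The fall of H3C11 (-0.48 ± 0.15, adjusted p = 0.0199) lost its call without the first sh-con DMSO array (-0.49, adjusted p = 0.105), the second sh-con DMSO array (-0.48, adjusted p = 0.08) or the second sh-con Nutlin array (-0.28, adjusted p = 0.281).

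H4, which forms the core tetramer with H3 and is encoded by many genes for an identical protein, had the lowest class median. H4C2 had 6.19 and 5.81 on the sh-con Nutlin arrays, against 9.69 and 9.41 with DMSO, 11.7-fold lower (-3.55 ± 0.17, adjusted p = 3.22e-11). H4C4 had 5.40 and 5.08 with Nutlin, against 8.52 and 8.21 with DMSO (-3.13 ± 0.16, adjusted p = 6.34e-11). H4C3 had 8.53 and 8.32 with Nutlin, against 11.34 and 11.12 with DMSO (-2.81 ± 0.14, adjusted p = 8e-11). In all 3 the groups lay far apart. The members that did not pass were H4C1, H4C9 and H4C16, with log2 fold changes of -0.30, -0.11 and -0.21. H4C16, which lies alone on chromosome 12 outside the histone clusters, had 5.01 and 4.99 with Nutlin and 5.34 and 5.09 with DMSO (-0.21 ± 0.17, adjusted p = 0.331).

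**Figure D2:**
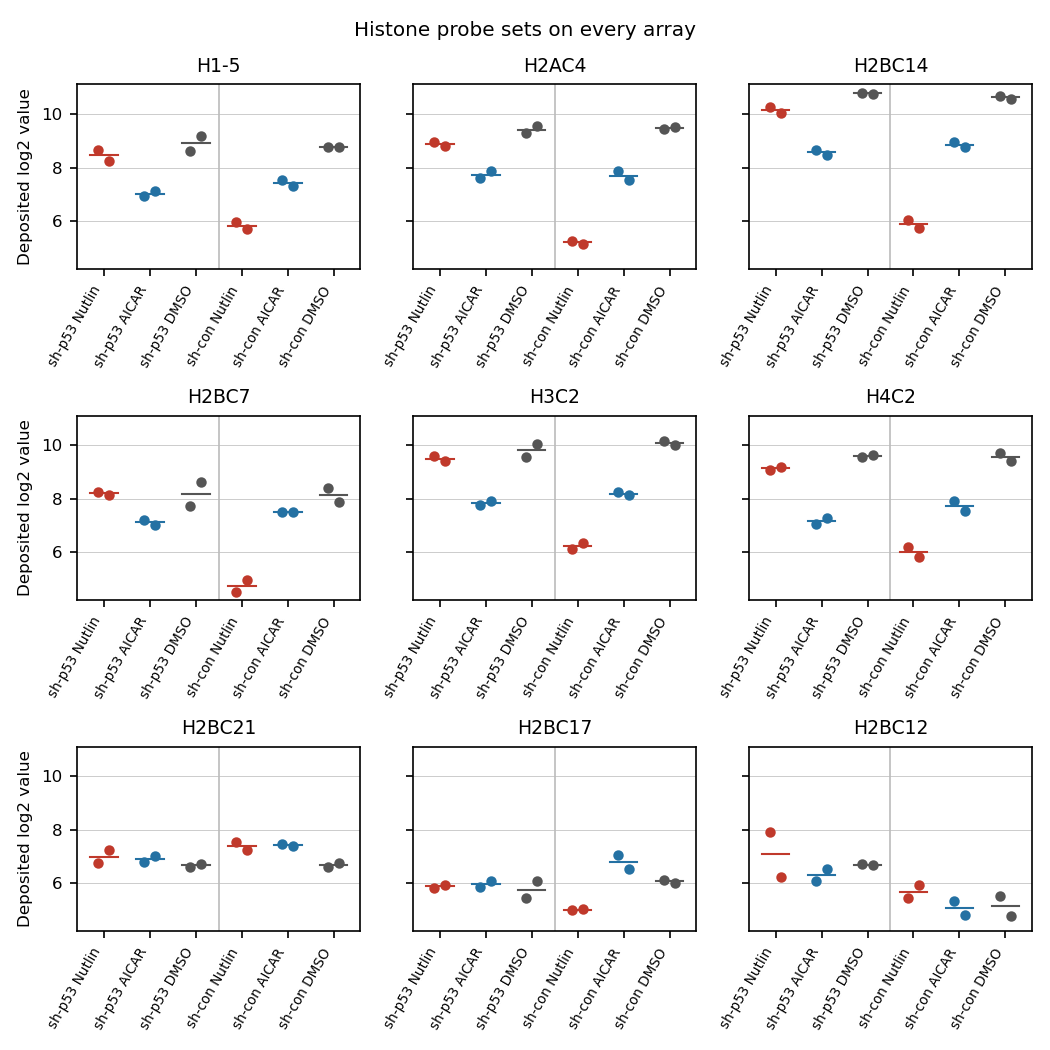
Deposited log2 values of 9 histone probe sets on every array (points), by group, with group means as bars, sh-p53 left of sh-con and compounds left of DMSO. In the first 6 panels the sh-con Nutlin arrays lie lowest, while H2BC21 lies above DMSO with Nutlin and with AICAR in sh-con, and the first sh-p53 Nutlin array of H2BC12 lies far above the second.

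The same Nutlin dose in sh-p53 asked whether the falls were seen where p53 was targeted. Of the 42 members, 0 rose and 0 fell by limma at an adjusted p under 0.05, against 0.0685% of all tested probe sets, and the lowest adjusted p of a member was 0.172. With an unadjusted p below 0.05, 1 was higher and 12 were lower, which is 2.38% and 28.6% of members, against 2.08% and 4.16% of all tested probe sets. Their log2 fold changes ran between -0.62 and 0.57 with a median of -0.17, and 32 of 42 were negative. H2BC14 had 10.25 and 10.02 on the sh-p53 Nutlin arrays, against 10.77 and 10.74 with DMSO in sh-p53 (-0.62 ± 0.15, adjusted p = 0.172). H2AC4 had 8.96 and 8.81 on the sh-p53 Nutlin arrays, against 9.27 and 9.55 with DMSO (-0.53 ± 0.15, adjusted p = 0.327). In both genes the Nutlin arrays lay under the DMSO arrays by far less than in sh-con. H2BC7 had 8.25 and 8.14 with Nutlin in sh-p53 and 7.74 and 8.61 with DMSO, with overlapping groups and a log2 fold change of 0.03.

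The difference of the Nutlin response between the lines, sh-p53 minus sh-con, was itself tested as an interaction. It was positive and called in 24 of 42 members and negative and called in 0, against 7.15% of all tested probe sets called, 4.53% positive and 2.62% negative. The median difference over the members was 1.16 on the log2 scale, and 40 of 42 were positive. It was called in 3 of 4 tested members of H1, 6 of 10 of H2A, 6 of 12 of H2B, 2 of 6 of H3 and 7 of 10 of H4. The fall of H2BC14 was smaller in sh-p53 by 4.07 ± 0.21 (adjusted p = 2.79e-09), the highest difference of all probe sets tested. For H2AC4 the difference was 3.70 ± 0.22 (adjusted p = 1.15e-08) and for H3C2 3.50 ± 0.23 (adjusted p = 2.98e-08). For H2BC7 it was 3.39 ± 0.32 (adjusted p = 1.23e-06), for H4C2 3.08 ± 0.23 (adjusted p = 9.37e-08) and for H1-5 2.47 ± 0.26 (adjusted p = 3.17e-06). These differences use the same sh-con arrays as the falls given above. The call of H2BC17 (1.18 ± 0.28, adjusted p = 0.0114) was lost without the first sh-p53 DMSO array (0.85, adjusted p = 0.0916). That of H4C8 (1.00 ± 0.25, adjusted p = 0.0173) was lost without the first sh-con DMSO array (0.89, adjusted p = 0.0922), the second sh-p53 DMSO array (0.85, adjusted p = 0.09), the second sh-con Nutlin array (0.96, adjusted p = 0.065) or the first sh-p53 Nutlin array (0.97, adjusted p = 0.0593).

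**Figure D3:**
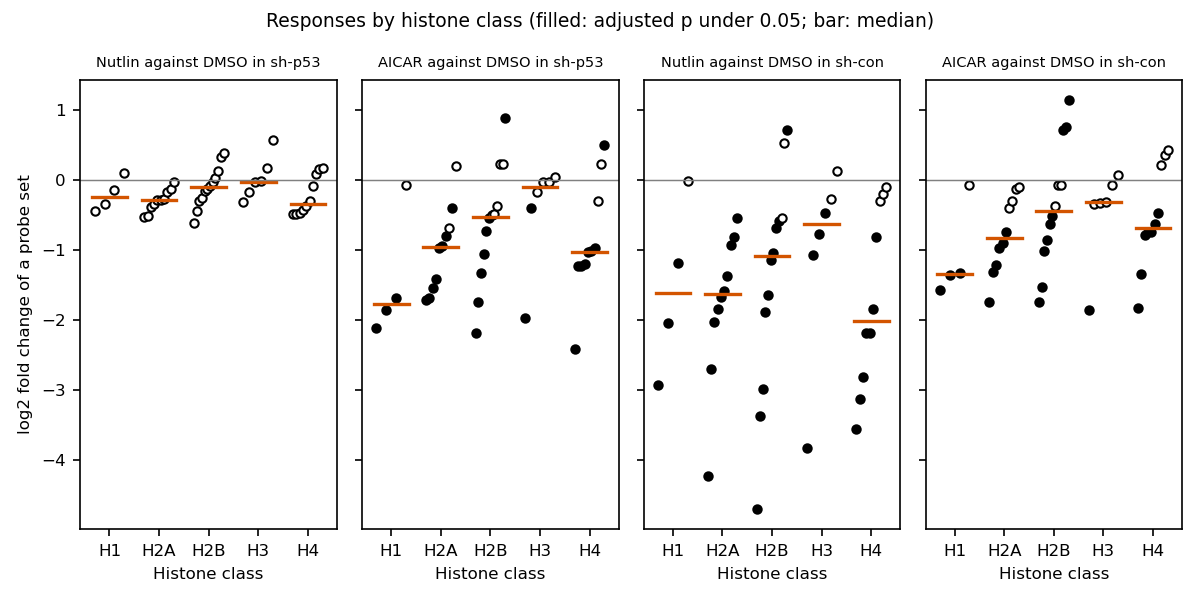
Log2 fold change of each tested probe set (points, filled where the adjusted p is under 0.05) against DMSO in each line, by histone class, with class medians as bars. Points with Nutlin in sh-p53 lie between -0.62 and 0.57 and none is filled, while in sh-con they reach -4.69, and with AICAR most H1, H2A and H4 points are filled and negative in both lines.

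Many histone transcripts were also lower with AICAR, in both lines. In sh-p53, 26 of 42 members fell and 2 rose, with a median log2 fold change of -0.88, while 37.7% of all tested probe sets were called, 21.6% lower and 16.1% higher. In sh-con, 23 fell and 3 rose, with a median of -0.58, while 37.6% of all tested probe sets were called, 23.1% lower and 14.5% higher. In all, 22 members fell in both lines, 84.6% of those that fell in sh-p53 and 95.7% of those that fell in sh-con. The same overlap was not counted over all tested probe sets, so it is not shown to be particular to the histone members. Of all tested probe sets, 0.993% were called in the AICAR response between the lines. Centring each array on its median shifted all AICAR log2 fold changes by -0.152 in sh-p53 and -0.141 in sh-con. The share of higher values among all calls was then 23.0% in sh-p53 and 22.0% in sh-con, where it was 42.6% in sh-p53 and 38.5% in sh-con without the centring. With that centring, 29 members were lower and 1 higher in sh-p53, and 27 were lower and 3 higher in sh-con.

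By class, 3 of 4 members of H1 fell with AICAR in each line, with class medians of -1.77 in sh-p53 and -1.35 in sh-con. H1-2 had 6.19 and 6.48 on the sh-p53 AICAR arrays, against 8.23 and 8.66 with DMSO (-2.11 ± 0.18, adjusted p = 1.19e-07). In sh-con it had 7.17 and 6.87 with AICAR, against 8.70 and 8.48 with DMSO (-1.57 ± 0.18, adjusted p = 2.49e-06). H1-4 fell by 1.68 ± 0.15 in sh-p53 (adjusted p = 2.37e-07) and by 1.36 ± 0.15 in sh-con (adjusted p = 1.97e-06). H1 was thus the class with the lowest median under AICAR in both lines.

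In H2A, 8 of 10 members fell with AICAR in sh-p53 and 6 of 10 in sh-con. H2AC4 had 7.60 and 7.86 on the sh-p53 AICAR arrays, against 9.27 and 9.55 with DMSO (-1.68 ± 0.15, adjusted p = 3.34e-07). The sh-con arrays had 7.86 and 7.54 with AICAR, against 9.42 and 9.49 with DMSO (-1.75 ± 0.15, adjusted p = 1.82e-07). The values of both lines lay close together under AICAR. H2AC6 had 6.16 and 6.69 on the sh-p53 AICAR arrays, against 8.16 and 8.13 with DMSO (-1.72 ± 0.17, adjusted p = 8.77e-07). Values in sh-con were 6.75 and 6.56 with AICAR, against 7.78 and 8.14 with DMSO (-1.31 ± 0.17, adjusted p = 1.49e-05). This gene, which was among the least changed of its class with Nutlin, was among the 3 most changed with AICAR.

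In H2B, 6 of 12 members fell with AICAR in each line. H2BC14 had 8.64 and 8.48 on the sh-p53 AICAR arrays, against 10.77 and 10.74 with DMSO (-2.19 ± 0.15, adjusted p = 1.63e-08). In sh-con it had 8.95 and 8.75 with AICAR, against 10.66 and 10.54 with DMSO (-1.75 ± 0.15, adjusted p = 1.2e-07). The class also held members that rose. H2BC21 had 7.45 and 7.38 on the sh-con AICAR arrays, against 6.60 and 6.74 with DMSO (0.75 ± 0.16, adjusted p = 0.00165). In sh-p53 it had 6.79 and 7.0 with AICAR, against 6.61 and 6.72 with DMSO, which did not pass (0.23 ± 0.16, adjusted p = 0.27), and the difference between the lines did not pass either (-0.51 ± 0.23, adjusted p = 0.365). H2BC19P had 6.22 and 6.22 on the sh-p53 AICAR arrays, against 5.20 and 5.47 with DMSO (0.88 ± 0.23, adjusted p = 0.00576), a call lost without the first sh-p53 DMSO array (0.75, adjusted p = 0.0595). The sh-con arrays had 6.21 and 5.50 with AICAR, against 4.95 and 4.50 with DMSO (1.13 ± 0.23, adjusted p = 0.000851). H2BC17 rose in sh-con (0.71 ± 0.20, adjusted p = 0.00865), but not without the first sh-con AICAR array (0.44, adjusted p = 0.0903).

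In H3, H3C2 again moved most, with 7.76 and 7.89 on the sh-p53 AICAR arrays, against 9.55 and 10.03 with DMSO (-1.97 ± 0.16, adjusted p = 1.02e-07). Values in sh-con were 8.25 and 8.12 with AICAR, against 10.12 and 9.97 with DMSO (-1.86 ± 0.16, adjusted p = 1.56e-07). It was the only H3 member that fell in sh-con. Sets shared by H3C13, H3C14 and H3C15, outside the members, also fell with AICAR. Their log2 fold changes were -1.83, -1.29 and -1.12 in sh-p53 and -1.11, -0.79 and -0.71 in sh-con. In sh-p53 H3C3 also fell, by 0.41 ± 0.14 (adjusted p = 0.0294), and this call was lost without the first (-0.42, adjusted p = 0.0923) or second (-0.39, adjusted p = 0.127) sh-p53 DMSO array and without the first (-0.38, adjusted p = 0.133) or second (-0.43, adjusted p = 0.07) sh-p53 AICAR array. In H4, 7 of 10 members fell in each line. H4C2 had 7.06 and 7.29 on the sh-p53 AICAR arrays, against 9.55 and 9.62 with DMSO (-2.41 ± 0.17, adjusted p = 1.86e-08). In sh-con it had 7.90 and 7.54 with AICAR, against 9.69 and 9.41 with DMSO (-1.83 ± 0.17, adjusted p = 2.29e-07). H4C3 fell by 1.20 ± 0.14 in sh-p53 (adjusted p = 4.82e-06) and by 1.34 ± 0.14 in sh-con (adjusted p = 1.22e-06). H4C1 was called higher in sh-p53 (0.50 ± 0.19, adjusted p = 0.0444), but not without the second sh-p53 DMSO array (0.27, adjusted p = 0.406), the first sh-p53 AICAR array (0.40, adjusted p = 0.245) or the second (0.61, adjusted p = 0.0555), nor with arrays centred on their median (0.35, adjusted p = 0.144).

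The AICAR response was not shown to differ between the lines. In the interaction 0 of 42 members were called by limma, against 0.993% of all tested probe sets called, 0.692% lower and 0.301% higher, with 0 higher and 11 lower in sh-p53 with an unadjusted p below 0.05. The 11 are 26.2% of members, and over all tested probe sets 6.78% were higher and 5.65% lower at that threshold. The lowest adjusted p of a member was 0.14. Over all calls of this interaction 30.3% were higher, and 17.6% with arrays centred on their median. Differences ran between -0.65 and 0.37 with a median of -0.26, and 35 of 42 were negative, that is, lower in sh-p53. The lowest was that of H2AC21, at -0.65 ± 0.20, which had 9.71 and 9.83 on the sh-p53 AICAR arrays, against 10.62 and 10.81 with DMSO, and 10.49 and 10.39 on the sh-con AICAR arrays, against 10.82 and 10.66 with DMSO.

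Set against each other, Nutlin left most histone transcripts above AICAR in sh-p53 and below it in sh-con. In sh-p53, Nutlin arrays were higher than AICAR arrays in 26 of 42 members and lower in 1, with a median difference of 0.65, while 34.4% of all tested probe sets were called, 18.9% higher and 15.5% lower. In sh-con, Nutlin arrays were higher in 1 and lower in 29, with a median of -0.78, while 34.7% of all tested probe sets were called, 17.8% higher and 16.9% lower. H2BC14 was higher with Nutlin than with AICAR by 1.58 ± 0.15 in sh-p53 (adjusted p = 4.82e-07), and in sh-con the difference was -2.94 ± 0.15 (adjusted p = 7.03e-11). For H4C2 the differences were 1.94 ± 0.17 in sh-p53 (adjusted p = 1.83e-07) and -1.71 ± 0.17 in sh-con (adjusted p = 2.61e-07). The linker histone H1-4 was not called in sh-con, with 10.35 and 10.46 with Nutlin and 10.30 and 10.17 with AICAR (0.17 ± 0.15, adjusted p = 0.448). The member lower with Nutlin in sh-p53 was the pseudogene H2BC19P (-1.14 ± 0.23, adjusted p = 0.000842). The member higher with Nutlin in sh-con was H2AC6 (0.48 ± 0.17, adjusted p = 0.0393), a call lost without the first (0.44, adjusted p = 0.16) or second (0.52, adjusted p = 0.0922) sh-con Nutlin array or the second sh-con AICAR array (0.38, adjusted p = 0.167). Centring on medians shifted the log2 differences by 0.107 in sh-p53 and gave a share of higher values among all calls of 69.2% there, where it was 55.1% without the centring. With that centring 28 members were higher and 1 lower in sh-p53. In sh-con it shifted the differences by 0.081, gave a share of 60.4% where it was 51.3% without the centring, and left 1 member higher and 26 lower.

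Without a stimulator, no tested histone member was shown to differ between sh-p53 and sh-con. In DMSO, 0 of 42 members were called by limma, against 0.617% of all tested probe sets, with a median of -0.02. With an unadjusted p below 0.05, 3 were higher and 1 lower, which is 7.14% and 2.38% of members, against 2.30% and 3.33% of all tested probe sets. The largest difference was that of H2BC12, an H2B gene that is also expressed outside S phase. It had 6.71 and 6.68 in sh-p53, against 5.53 and 4.80 in sh-con (1.53 ± 0.36, adjusted p = 0.0728), and it was called with arrays centred on their median (adjusted p = 0.0246). Its 2 sh-p53 Nutlin arrays differed, at 7.91 and 6.25.

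Probe sets annotated with several symbols, at least 1 of them a replication-dependent histone gene, were not members. There were 20, of which 10 name at least 1 of the 58 members and 10 name only genes outside the 58. Of the 20, 17 passed the filter when fitted together with the rest, 15918 probe sets in all. Of these 17, 13 had a positive and called difference of the Nutlin response between the lines. Over the 15918, 723 differences were positive and called and 419 negative and called. With Nutlin in sh-con 15 of the 17 fell and 0 rose, against 2914 lower and 1762 higher of the 15918. Among the 17 were 3 pairs of sets with identical values, which left 14 distinct measurements, of which 13 fell with Nutlin in sh-con and 11 had a called difference between the lines. With AICAR, 14 fell and 2 rose in sh-p53, and 11 fell and 2 rose in sh-con, or 12 and 1 in sh-p53 and 9 and 1 in sh-con as distinct measurements. Of the 15918, 3398 fell and 2572 rose with AICAR in sh-p53, and 3628 fell and 2314 rose in sh-con. The set for H3C4 and H2AC7 had 6.75 and 6.75 on the sh-con Nutlin arrays, against 10.08 and 9.97 with DMSO (-3.27 ± 0.13, adjusted p = 1.66e-11). The 2 that rose with AICAR are a pair with identical values annotated to both H4C14 and H4C15, at 8.75 and 8.57 on the sh-con AICAR arrays, against 7.29 and 7.34 with DMSO (1.35 ± 0.15, adjusted p = 1.99e-06). The sets named for H4C14 or H4C15 alone had 8.84 and 8.84 with AICAR, against 9.53 and 9.66 with DMSO (-0.75 ± 0.15, adjusted p = 0.000538), so probe sets of the same gene pair disagreed in direction. Likewise, the set shared by H2BC19P, H2BC20P and H2BC21 fell with Nutlin in sh-con (-1.26 ± 0.15, adjusted p = 5.03e-06), where the set named for H2BC21 alone rose. The set shared by H2BC18, H2BP1 and H2BC21 also fell there (-0.69 ± 0.13, adjusted p = 0.00101). Neither of these shared sets was called with AICAR in sh-con (-0.35 and -0.18). The set shared by H2BC12, H2BC12L, H2BC17 and H2BC5 fell with AICAR in sh-con (-0.94 ± 0.18, adjusted p = 0.000458), where the set named for H2BC17 alone rose.

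The genes that make and process histone mRNA were read from a list of textbook genes. Of 19 tested genes for histone gene transcription and 3′ end processing, 0 were higher and 10 lower with Nutlin in sh-con, and 0 rose and 0 fell with Nutlin in sh-p53. Over all tested probe sets, 11.0% were higher and 18.7% lower with Nutlin in sh-con, and 0.0685% were called in sh-p53. SLBP had 6.98 and 7.40 on the sh-con Nutlin arrays, against 8.42 and 8.36 with DMSO (-1.20 ± 0.15, adjusted p = 7.03e-06). NPAT had 6.86 and 6.55 on the sh-con Nutlin arrays, against 7.84 and 7.71 with DMSO (-1.07 ± 0.16, adjusted p = 9.02e-05). CASP8AP2, a partner of NPAT in histone gene expression, fell by 1.37 ± 0.19 (adjusted p = 3.26e-05). The Nutlin response of SLBP was higher in sh-p53 than in sh-con by 0.85 ± 0.21 (adjusted p = 0.0158), a call lost without the first sh-con DMSO array (0.82, adjusted p = 0.0758), the first sh-p53 DMSO array (0.81, adjusted p = 0.0747) or the first sh-con Nutlin array (0.63, adjusted p = 0.0993). That of NPAT was higher by 0.79 ± 0.23 (adjusted p = 0.0477) and lost its call without either DMSO array of sh-p53 or of sh-con, without the first sh-p53 Nutlin array and without the second sh-con Nutlin array, with adjusted p between 0.078 and 0.237 and differences between 0.59 and 0.86. It was also lost with arrays centred on their median (0.81, adjusted p = 0.0707) and without the filter on dim probe sets (0.79, adjusted p = 0.0585). With AICAR, 1 of the 19 rose and 5 fell in each line. Of all tested probe sets, 21.6% fell and 16.1% rose with AICAR in sh-p53, and 23.1% fell and 14.5% rose in sh-con. The share of falls on this list was thus near that of all tested probe sets. NPAT had 7.55 and 7.50 on the sh-p53 AICAR arrays, against 7.89 and 7.86 with DMSO (-0.35 ± 0.16, adjusted p = 0.103), and 7.95 and 7.60 on the sh-con AICAR arrays, against 7.84 and 7.71 with DMSO (0.00 ± 0.16, adjusted p = 0.99). SLBP had 8.58 and 8.72 on the sh-p53 AICAR arrays, against 8.22 and 8.28 with DMSO (0.40 ± 0.15, adjusted p = 0.0417), which was not called with arrays centred on their median (0.25, adjusted p = 0.263) or without any 1 of the 4 arrays (0.33 to 0.47). In sh-con SLBP had 8.32 and 8.32 with AICAR, against 8.42 and 8.36 with DMSO (-0.07 ± 0.15, adjusted p = 0.727).

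The AICAR falls on this list were in other genes, and CPSF3, HINFP and CPSF2 fell in both lines. CPSF3, the endonuclease that cuts histone pre-mRNA, had 7.08 and 7.30 on the sh-p53 AICAR arrays, against 9.02 and 9.14 with DMSO (-1.89 ± 0.17, adjusted p = 2.88e-07). The sh-con arrays had 7.40 and 7.13 with AICAR, against 9.09 and 9.06 with DMSO (-1.81 ± 0.17, adjusted p = 3.69e-07). CPSF3 also cuts other pre-mRNAs before the poly(A) tail is added. HINFP, a transcription factor of H4 genes, fell by 0.77 ± 0.15 in sh-p53 (adjusted p = 0.000511) and by 0.79 ± 0.15 in sh-con (adjusted p = 0.000386). The endonuclease partner CPSF2 fell by 0.70 ± 0.15 in sh-p53 (adjusted p = 0.00175) and by 0.51 ± 0.15 in sh-con (adjusted p = 0.015), where the call was lost without the first DMSO array (-0.46, adjusted p = 0.113) or the second AICAR array (-0.34, adjusted p = 0.176).

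Of 22 tested S phase genes, 0 were higher and 21 lower with Nutlin in sh-con, with a median log2 fold change of -2.32, and 18 differed in the Nutlin response between the lines. The shares over all tested probe sets were 11.0% higher and 18.7% lower, and 7.15% called for the difference between the lines. With AICAR the list split: 7 rose and 1 fell in sh-p53, and 6 rose and 9 fell in sh-con. Of all tested probe sets, 16.1% rose and 21.6% fell with AICAR in sh-p53, and 14.5% rose and 23.1% fell in sh-con. The AICAR response was not shown to differ between the lines on this list, with 0 of the 22 called in the interaction. CCNE2, the E-type cyclin that drives S phase entry, had 8.51 and 8.89 on the sh-p53 AICAR arrays, against 6.05 and 6.39 with DMSO (2.48 ± 0.19, adjusted p = 5.06e-08). Values in sh-con were 8.46 and 8.09 with AICAR, against 6.35 and 6.11 with DMSO (2.05 ± 0.19, adjusted p = 3.25e-07). The replicative helicase subunit MCM3 fell by 0.60 ± 0.15 in sh-p53 (adjusted p = 0.00388; without the first AICAR array -0.46, adjusted p = 0.0685) and by 1.28 ± 0.15 in sh-con (adjusted p = 2.98e-06). With AICAR, then, CCNE2 rose in both lines, in which more tested histone members fell than rose.

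Of 18 tested histone chaperone and chromatin assembly genes, 0 were higher and 15 lower with Nutlin in sh-con, and with AICAR 3 rose and 5 fell in sh-p53 and 2 rose and 6 fell in sh-con. The Nutlin shares over all tested probe sets in sh-con were 11.0% higher and 18.7% lower. The AICAR shares over all tested probe sets were 16.1% higher and 21.6% lower in sh-p53, and 14.5% higher and 23.1% lower in sh-con. ASF1B, a chaperone that hands H3 and H4 to the assembly machinery in dividing cells, had 6.14 and 5.81 on the sh-con Nutlin arrays, against 8.16 and 8.13 with DMSO (-2.17 ± 0.16, adjusted p = 9.28e-09). With AICAR it rose instead, to 9.55 and 9.70 in sh-p53, against 8.18 and 8.39 with DMSO (1.34 ± 0.16, adjusted p = 4.99e-06). In sh-con it had 9.60 and 9.38 with AICAR, against 8.16 and 8.13 with DMSO (1.35 ± 0.16, adjusted p = 4.27e-06). Its relative ASF1A fell with AICAR, by 1.20 ± 0.15 in sh-p53 (adjusted p = 1.05e-05) and by 0.52 ± 0.15 in sh-con (adjusted p = 0.0126), where the call was lost without the first DMSO array (-0.46, adjusted p = 0.107) or the second AICAR array (-0.47, adjusted p = 0.0652). The difference between the lines did not pass (-0.68 ± 0.22, adjusted p = 0.156).

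Of 8 tested genes listed as replication-independent variants, 0 were higher and 3 lower with Nutlin in sh-con, against 11.0% higher and 18.7% lower of all tested probe sets. H2AZ1, the H2A.Z variant of promoters, had 9.22 and 9.20 on the sh-con Nutlin arrays, against 11.02 and 10.88 with DMSO (-1.74 ± 0.15, adjusted p = 6.54e-08). H3-3B, which encodes the H3.3 variant, was not called (-0.19 ± 0.13, adjusted p = 0.287). With AICAR 3 rose and 0 fell in sh-p53, and 2 rose and 0 fell in sh-con. Over all tested probe sets 16.1% rose and 21.6% fell with AICAR in sh-p53, and 14.5% rose and 23.1% fell in sh-con. H2AJ, an H2A variant gene, rose by 1.17 ± 0.15 in sh-p53 (adjusted p = 8.63e-06) and by 0.89 ± 0.15 in sh-con (adjusted p = 0.000138).

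**Figure D4:**
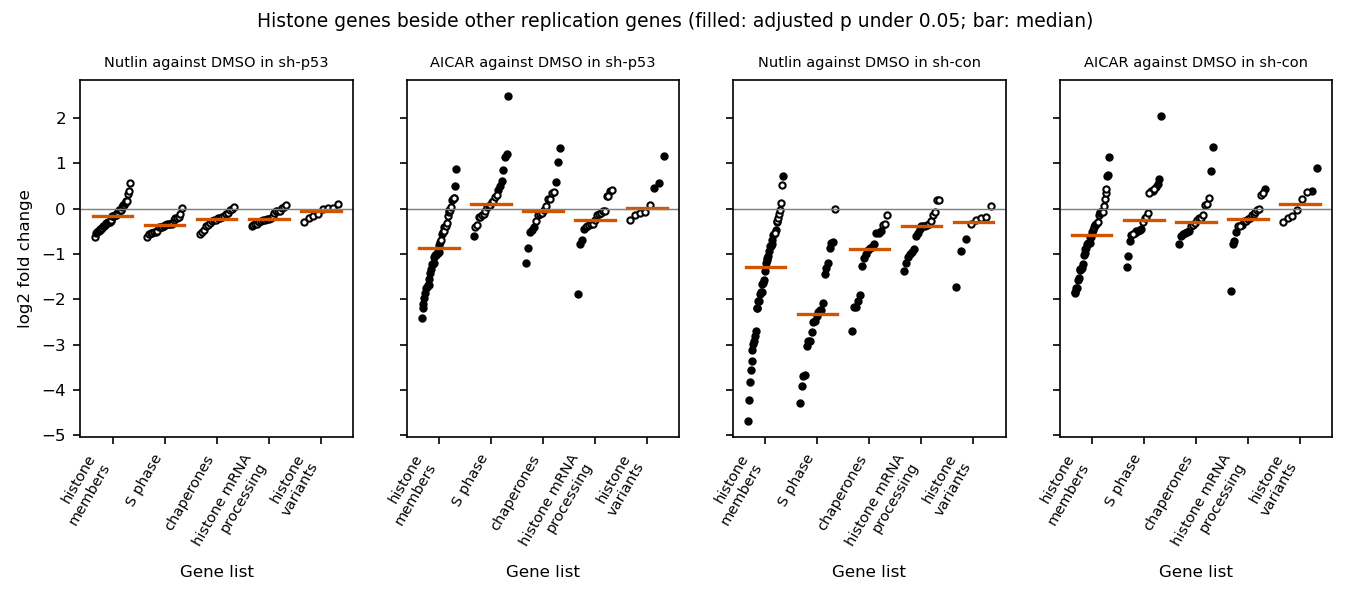
Log2 fold change against DMSO in each line of the 42 tested histone members and of the tested genes of 4 lists (points, filled where the adjusted p is under 0.05, bars at list medians). With Nutlin in sh-con the medians are -1.28 for histone members and -2.32 for S phase genes. With AICAR they are -0.88 and 0.11 in sh-p53, with CCNE2 as the highest S phase point, and -0.58 and -0.25 in sh-con.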

How the data were processed

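Transcripts were measured on 12 Affymetrix arrays, 2 for each of 6 groups, taken from the labels. The deposited values are log2 signals made by the authors with RMA and Partek, per the submitters' processing notes (their versions are not given in the sources used here). This method applies quantile normalisation, makes no detection call and compresses differences of dim probe sets. The value table held 33297 probe sets, of which 19460 had 1 gene symbol in the platform annotation, which can be old, 1754 had several and 12083 were unannotated here. All 12 columns were mapped, leaving 0 unused. Probe sets with a mean under the 25th percentile (4.58) were left out, and 14595 were tested.

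One limma model (limma 3.58.1, R 4.3.3) with a mean per group gave 9 comparisons with Benjamini-Hochberg adjustment over all tested probe sets and a call at an adjusted p under 0.05. Residual degrees of freedom were 6 and the prior added 11.2. Tested on simulated data for Nutlin against DMSO in sh-con, with 200 of 14595 probe sets changed, the model called 11.9% of changes of 0.5 log2, 80.6% of 1 and 100% of 2. It called 0.0347% of unchanged probe sets. In the data 4344 probe sets were called in this comparison. The adjustment is less strict where more probe sets change, so these rates do not carry over to it. Tables, promoter searches and plots were made with Python 3.11.15 with pandas 2.3.3, numpy 2.4.6 and matplotlib 3.10.9.

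The members and gene lists were chosen with earlier results of these data known. By the rule for named genes, values on every array are given, per class, for up to 3 called members with the largest change in a comparison, up to 2 called against the class and up to 2 with the smallest change, as far as these are printed. Of each list, up to 4 called genes with the largest change could be named, plus SLBP, NPAT, CDKN1A and MDM2, and not all of them are printed in every comparison. Replicate numbers were checked for pairing: over 15 pairs of groups the correlation of same-numbered deviations ran between -0.55 and 0.56, median 0.03, so the numbers were not taken to pair samples. Alternatives were another normalisation, median centring, other filters, the brightest probe set per gene, limma-trend, only the groups compared, a replicate block and leaving out each array. Counting identical probe sets once and adding probe sets of several symbols were chosen after seeing the data. The hairpin's own target was not analysed here.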

Additional observations from a re-analysis of the deposited data

Results flagged for a closer look

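The Nutlin response differed between the lines in 24 tested histone members by the interaction test (sh-p53 minus sh-con, log2 scale), which is what singled them out. In H1 the differences were 1.05 for H1-4, 1.70 for H1-2 and 2.47 for H1-5. In H2A they were 1.34 for H2AC17, 1.41 for H2AC20, 1.69 for H2AC8, 1.71 for H2AC13, 2.42 for H2AC21 and 3.70 for H2AC4. In H2B they were 1.18 for H2BC17, 1.54 for H2BC9, 1.72 for H2BC4, 2.54 for H2BC3, 3.39 for H2BC7 and 4.07 for H2BC14. In H3 they were 1.04 for H3C3 and 3.50 for H3C2. In H4 they were 1.00 for H4C8, 1.47 for H4C5, 1.70 for H4C14 and H4C15, 2.49 for H4C3, 2.70 for H4C4 and 3.08 for H4C2. By the same test the response differed by 0.79 in NPAT, 0.85 in SLBP and -1.45 in CDKN1A. A probe set shared by H4C14 and H4C15, outside the members, was higher with AICAR than with DMSO in sh-con by 1.35 on the log2 scale, while the probe sets named for either gene alone were lower.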

How the results depend on the processing

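In DMSO, 1 histone member was called in place of 0 with arrays centred on their median, with limma-trend, with only the groups compared and with the replicate block. It was H2BC12, higher in sh-p53, with adjusted p of 0.0246, 0.0209, 0.000474 and 0.0262 in that order. For the AICAR response between the lines, 1 was called in place of 0 with quantile normalisation repeated (H2AC21, -0.66, adjusted p = 0.039) and with limma-trend (adjusted p = 0.0454). The cause was not tested. Leaving out 1 array gave 31 to 34 calls for Nutlin and 21 to 26 for AICAR in sh-con, 0 for Nutlin and 25 to 26 for AICAR in sh-p53, 23 to 25 for the Nutlin response between the lines and 0 for the AICAR response. It gave 21 to 27 calls for Nutlin against AICAR in sh-p53, 22 to 27 in sh-con and 0 in DMSO. The replicate block gave 34 calls for Nutlin and 26 for AICAR in sh-con, and 25 for the Nutlin response between the lines. Without the filter on dim probe sets, the 16 untested members gave 5 calls, among them H2BC10 (-0.49, adjusted p = 0.00958) with Nutlin in sh-con. With 2 arrays a group, changes near 0.5 on the log2 scale were seldom called on simulated data with 200 changed probe sets. In the data some of that size were called, such as H3C11 (-0.48) with Nutlin in sh-con. Near-identical copies may share probes, which was not tested.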
